A study of Mus musculus with 24 samples.

Results

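The genes examined encode 9 proteins of the machinery that fuses insulin granules with the plasma membrane. They are the SNARE proteins Snap25, Vamp2 and Stx1a, the priming factor Unc13a, the synaptotagmins Syt4 and Syt7, the small GTPases Rab3a and Rab27a, and the scaffold protein Rims2. They were chosen for their function, with earlier results of these data known, and all 9 were found among the 41549 genes of the count table and passed the filter on low counts that left 15916 genes for testing.

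Polyadenylated RNA was sequenced with strand information from dispersed pancreatic islet cells of wild type mice, in 4 groups of 6 libraries. Cells were transfected with 50 pmol of a control antisense oligonucleotide (Ctr) or of an LNA inhibitor of 5'tRF Glu(CTC), a fragment cut from the 5' end of a glutamate tRNA (αGlu). They were then kept for 48 h in medium with 1% serum that held 0.75% BSA alone (BSA) or 0.5 mM palmitate, a saturated fatty acid, bound to BSA (PA). The study's methods list C57BL/6NRj mice of both sexes aged 12 to 14 weeks as islet donors without tying them to single libraries. Every group, controls included, had thus been dispersed, transfected and cultured. The labels place libraries S1 to S12 in batch 1 and S13 to S24 in batch 2, 3 from each of the 4 groups, without saying what a batch is.

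Calcium entry through voltage-gated channels starts insulin release. Rab3a and Rab27a sit on the granule and recruit effectors that tether it near the membrane, Rims2 links Rab3 to the calcium channels and to Unc13 proteins, and Unc13a opens syntaxin so that Stx1a and Snap25 on the plasma membrane can zip together with Vamp2 on the granule. Syt7 is a high-affinity calcium sensor for release, and Syt4, which binds calcium poorly, is known in β-cells as a late maturation gene that raises the calcium threshold of secretion.

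The sequences of the inhibitor and of the fragment it binds are shown because every αGlu comparison rests on their pairing. Both are given 5' to 3', and capitals mark the 20 bases of each that pair, which are all 20 bases of the inhibitor and positions 2 to 21 of the target.
αGlu inhibitor: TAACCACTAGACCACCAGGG
Target in 5'tRF Glu(CTC): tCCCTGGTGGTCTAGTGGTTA

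Islet cell identity was checked first. Ins1, Ins2 and 8 other β-cell genes had counts in every library, with a summed level of 84084 to 152140 CPM (counts scaled to the library total). The α-cell genes, led by Gcg, summed to 9593 to 25250 CPM. Acinar genes summed to 2942 to 21188 CPM in batch 1 and to 213 to 584 CPM in batch 2. All values are thus averages over several endocrine cell types and exocrine cells. Peripheral neurons use the same SNARE machinery. Of their defining genes Dbh was at 0 in 20, Phox2a in 18 and Chat in 17 of the 24 libraries, and the summed list of 10 neuronal genes, carried by Nefm and Th, was at 15.8 to 44.8 CPM. Libraries held 18214719 to 35001979 counts (median 26701202), and each of the 9 genes had 191 to 14493 counts in every library. In bulk RNA, fewer cells of a type and less RNA per cell cannot be told apart. A pair of libraries stood apart from the rest over all genes, namely Ctr BSA S1 and Ctr PA S23, with a median distance of 0.19 and 0.20 log2 units from the mean of their group and batch, against 0.07 to 0.13 in the others.

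The level of each gene per transcript length was read from the deposited TPM values, which divide reads by gene length and by the library's sum. In Ctr BSA cells Syt4 was the most abundant of the 9 genes, at 208 ± 72 TPM (mean ± SD, n = 6), and held the first place in all 24 libraries. Rab27a (119 ± 28 TPM) and Syt7 (108 ± 21.1 TPM) followed. Their ranges overlapped in Ctr BSA, where Rab27a was above Syt7 in 5 of 6 libraries. Over all groups Rab27a was above Syt7 in 15 of 24 libraries. By mean TPM Rab27a was also the higher in αGlu BSA (133 against 116), while Syt7 was the higher in Ctr PA (134 against 130) and in αGlu PA (139 against 134).

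Rab3a (82.9 ± 19 TPM), Snap25 (80.6 ± 17.1 TPM) and Vamp2 (78.5 ± 16 TPM) formed a middle tier in Ctr BSA. Their ranges overlapped, and without library S1 the first 2 changed places (85.7 TPM for Rab3a and 86.1 TPM for Snap25). Unc13a, at 33.1 ± 6.69 TPM, was below all 6 of these genes in every library. Rims2 (16 ± 2.04 TPM) and Stx1a (11.3 ± 1.74 TPM) were the lowest, and their ranges overlapped, with Rims2 above Stx1a in 22 of 24 libraries.

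Among the 16306 genes with a TPM value above 0 in each Ctr BSA library, Syt4 lay at percentile 98, while Stx1a lay at percentile 52. Stx1a, the plasma membrane syntaxin, was thus near the middle of all expressed genes, far below its partner Snap25. The related syntaxin Stx4a had 25.6 ± 3.33 TPM in Ctr BSA, above Stx1a. Other relatives were lower or higher than the chosen members: Syt13, a synaptotagmin that does not bind calcium, reached 571 ± 149 TPM, Syt5 85.1 ± 26.4 TPM and Syt9 12.1 ± 1.23 TPM, whereas Syt1, the main sensor of neuronal release, had 1.36 ± 0.35 TPM. Rab3d (91.6 ± 30.9 TPM) and Rab3b (39.0 ± 5.34 TPM) were present beside Rab3a, and Rab3c had 1.78 ± 0.47 TPM. Rims1, the neuronal relative of Rims2, had 0.52 ± 0.13 TPM, and Unc13b had 10.7 ± 2.00 TPM.

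**Figure D1:**
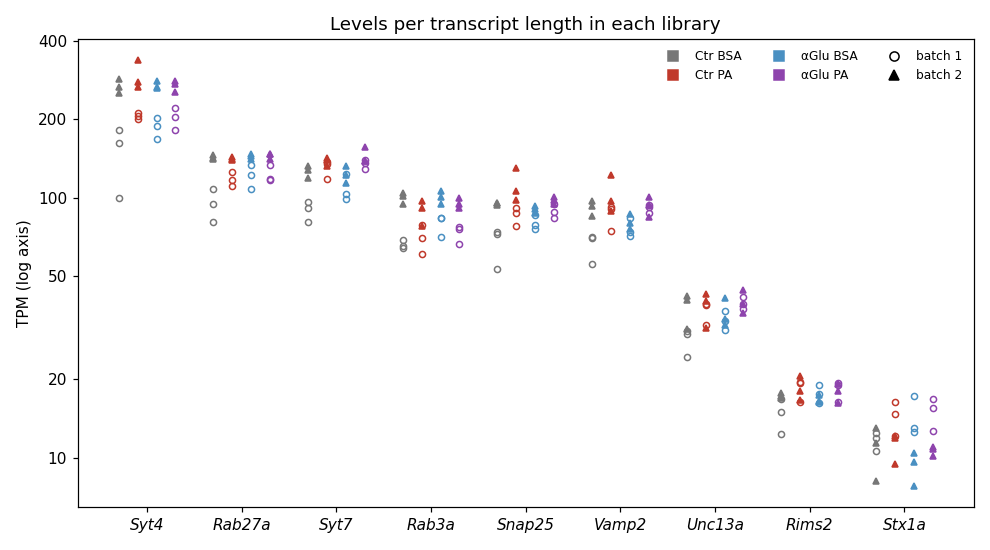
TPM (log axis) of the 9 exocytosis genes in each library, ordered by their mean in Ctr BSA, with colours for the 4 groups, open circles for batch 1 and filled triangles for batch 2. Syt4 is first in all 24 libraries, Unc13a is below the 6 genes to its left in each library, and Rims2 and Stx1a are the lowest.

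The bases upstream of 3 members show what lies before their start sites. RefSeq promoter windows were at hand for Stx1a, Rab3a, Unc13a and Rab27a. None was at hand for Rims2 or for Snap25, Vamp2, Syt4 and Syt7, the genes that rose with palmitate in Ctr cells (below). In the 226 bases that precede both the RefSeq and the GENCODE start of each, the cAMP-response half-site (TGACG, or CGTCA on the other strand) was found in 3 of the 4 windows, against 15.5% of all 32851 windows cut to the same bases. The Rab27a window held no half-site and is not printed. A match of 5 letters describes the sequence and marks no bound site. The windows are RefSeq sequence of GRCm38.p6, 5' to 3' along the gene, with the half-site in capitals.
Rab3a, chr8:70754453-70754678, + strand: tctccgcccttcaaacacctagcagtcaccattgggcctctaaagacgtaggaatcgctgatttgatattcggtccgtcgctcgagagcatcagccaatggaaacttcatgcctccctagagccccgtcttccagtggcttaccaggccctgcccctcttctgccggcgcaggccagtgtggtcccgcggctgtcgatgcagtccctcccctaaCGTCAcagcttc
Stx1a, chr5:135023232-135023457, + strand: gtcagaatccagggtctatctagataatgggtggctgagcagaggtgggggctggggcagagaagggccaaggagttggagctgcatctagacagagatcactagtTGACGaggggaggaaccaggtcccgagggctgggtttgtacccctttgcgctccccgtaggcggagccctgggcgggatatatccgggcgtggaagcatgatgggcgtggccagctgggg
Unc13a, chr8:71671782-71672007, - strand: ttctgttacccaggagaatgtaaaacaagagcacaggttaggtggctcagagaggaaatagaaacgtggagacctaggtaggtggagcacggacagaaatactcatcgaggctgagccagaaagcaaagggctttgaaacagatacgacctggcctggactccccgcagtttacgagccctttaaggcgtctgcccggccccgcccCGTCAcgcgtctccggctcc

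The first question was whether palmitate changed these genes in cells given the control oligonucleotide. Syt7, Syt4, Snap25 and Vamp2 rose in Ctr PA against Ctr BSA, from 1.16-fold for Vamp2 to 1.2-fold for Syt7 and Syt4, so that 4 of the 9 genes passed an adjusted p of 0.05, all of them upward. Unc13a, Stx1a, Rab3a, Rab27a and Rims2 did not pass. Among all 15916 genes tested, 30% passed (15.5% upward), and the median log2 fold change was 0.15 over the 9 genes and 0.01 over all genes. None of the 9 reached the 2-fold change with p below 0.05 that the study used as its threshold, which 5.91% of all genes met. Levels are given below in CPM scaled by trimmed mean of M-values (TMM), and fold changes and their standard errors come from edgeR's quasi-likelihood fit with a batch term, with p-values adjusted by Benjamini-Hochberg over all genes tested.

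Syt7 lies on chromosome 19 (GRCm38, 10389090 to 10453180). It ran from 240 CPM through a median of 309 CPM to 356 CPM in Ctr BSA, and from 313 through 356 to 392.2 CPM in Ctr PA. The full ranges overlapped, but within each batch every PA library was above every BSA library. The log2 fold change was 0.27 ± 0.06 (SE, edgeR adjusted p = 0.00107), with 0.36 in batch 1 alone and 0.16 in batch 2 alone, where the adjusted p was 0.140. Leaving out any 1 library kept it past the threshold.

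Syt4 (chromosome 18, 31437808 to 31447406) had a lowest, median and highest level of 185, 298 and 411 CPM in Ctr BSA and of 264, 329 and 519 CPM in Ctr PA. In batch 1 all 3 PA libraries were above all 3 BSA libraries, and in batch 2 the groups overlapped. The log2 fold change was 0.26 ± 0.08 (edgeR adjusted p = 0.00949), with 0.34 in batch 1 alone and 0.18 in batch 2 alone (adjusted p = 0.0375 and 0.293). Fitted on the Ctr libraries alone, the adjusted p was 0.0554. An antisense gene, Gm26658, shares 566 exonic bases with Syt4 on the opposite strand but held 64 counts in all 24 libraries together, against 206750 for Syt4.

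Snap25, the plasma membrane SNARE with a pair of helices in the fusion complex, lies on chromosome 2 (136713453 to 136782428). Its levels were 168, 202 and 240 CPM (lowest, median, highest) in Ctr BSA and 187, 229 and 348 CPM in Ctr PA. In both batches the 3 PA libraries lay above the 3 BSA libraries. The log2 fold change was 0.25 ± 0.06 (edgeR adjusted p = 0.00478), with 0.21 in batch 1 alone and 0.28 in batch 2 alone, where the adjusted p was 0.0740 and 0.0960. The highest value came from library S23, and without it the log2 fold change was 0.16 (adjusted p = 0.00407).

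Vamp2, the granule SNARE (chromosome 11, 69088490 to 69092384), ran from 91.3 through 108 to 133 CPM in Ctr BSA and from 100 through 123 to 183 CPM in Ctr PA. The groups overlapped in both batches. Its log2 fold change of 0.22 ± 0.08 (edgeR adjusted p = 0.0340) was the least secure of the 4 calls. It moved to 0.13 (adjusted p = 0.114) without Ctr PA S23, and the adjusted p lay between 0.0567 and 0.0747 without Ctr PA S3 or S11 or without Ctr BSA S5, S9 or S17. With upper-quartile scaling it was 0.0566.

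The other 5 genes did not pass. Rims2 (chromosome 15, 39198261 to 39684372) came nearest, at 54.7, 62.5 and 66.1 CPM in Ctr BSA and 60.2, 66.5 and 84.5 CPM in Ctr PA, with a log2 fold change of 0.15 ± 0.06 (edgeR adjusted p = 0.0717). Its highest value was again S23. Leaving out Ctr PA S7, S15 or S19 brought its adjusted p to between 0.0370 and 0.0470, and leaving out S23 brought the log2 fold change to 0.09. With a block of library sets assumed from the library numbers it passed (0.14, adjusted p = 0.0409).

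Unc13a (chromosome 8, 71624417 to 71671757) had 128, 147 and 190 CPM in Ctr BSA and 144, 166 and 189 CPM in Ctr PA (log2 fold change 0.12 ± 0.07, edgeR adjusted p = 0.175). Its last exons share 495 bases with Colgalt1 on the opposite strand, which held 35046 counts in all libraries against 104105 for Unc13a, and the strand setting of the counting is not given in the sources used here. Stx1a (chromosome 5, 135023482 to 135051100), the gene of lowest count, had 8.03, 10.9 and 15.9 CPM in Ctr BSA and 9.92, 11.5 and 14.8 CPM in Ctr PA. The log2 estimate for it, 0.10, had a 95% interval from -0.15 to 0.35, which includes a change of the size seen for Snap25.

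Neither Rab gene passed. Rab27a (chromosome 9, 73044854 to 73097629) had 125, 173 and 204 CPM in Ctr BSA and 153, 176 and 214 CPM in Ctr PA (log2 fold change 0.09 ± 0.05, edgeR adjusted p = 0.209). Rab3a (chromosome 8, 70754679 to 70758677) was the only member with a lower estimate, at 48.5, 75.5 and 82.3 CPM in Ctr BSA and 47.9, 63.8 and 80.9 CPM in Ctr PA. Its log2 difference of -0.12 (edgeR adjusted p = 0.264, 95% interval -0.28 to 0.04) became -0.03 without Ctr BSA S1.

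**Figure D2:**
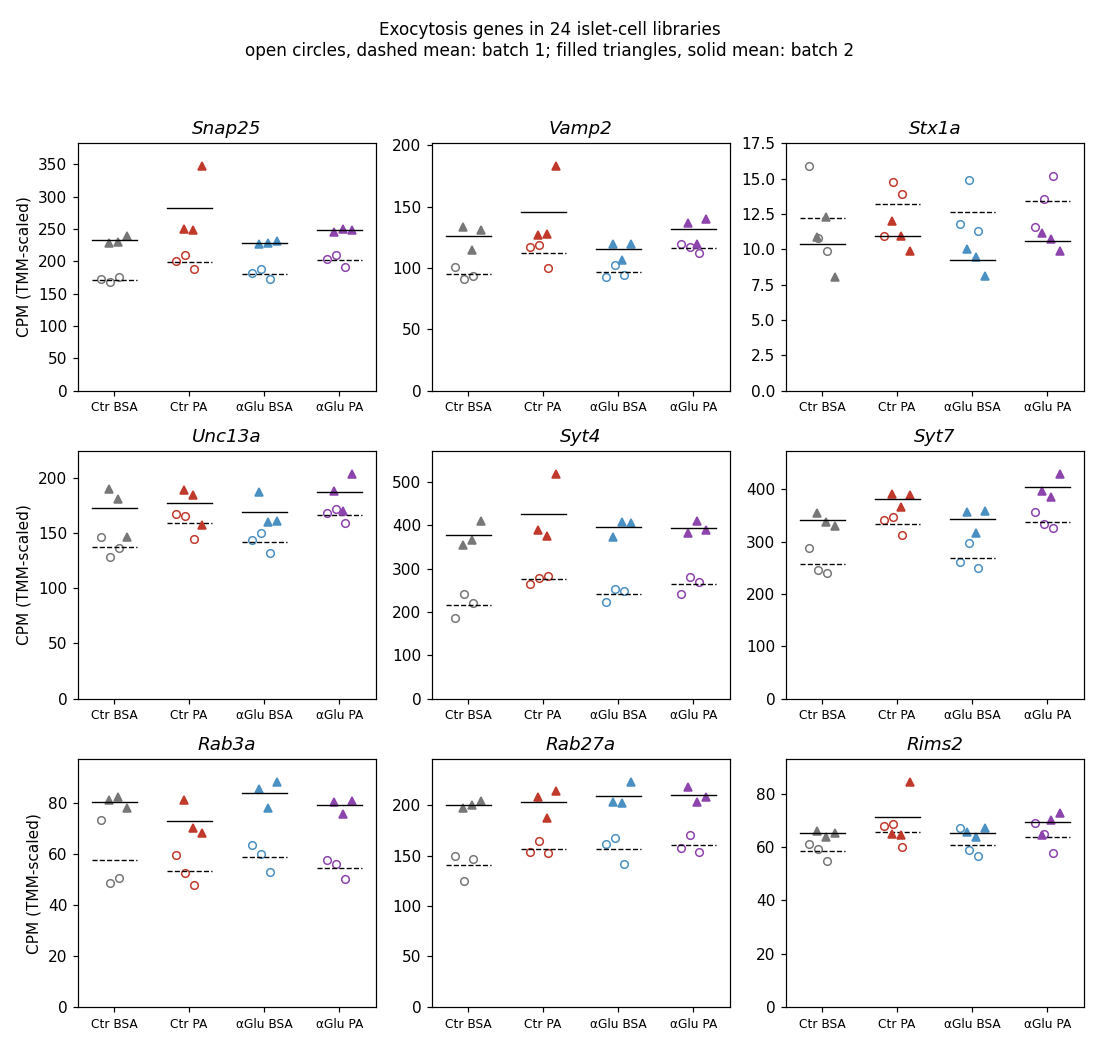
TMM-scaled CPM of each of the 9 genes in the 24 libraries, by group, with open circles and dashed means for batch 1 and filled triangles and solid means for batch 2. In Snap25 and Syt7 each PA library lies above each BSA library of the same oligonucleotide and batch, and Ctr PA S23 is the highest point of Snap25, Vamp2, Syt4 and Rims2.

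Library S23 stood out in several of these genes. It had 348 CPM of Snap25, 183 CPM of Vamp2, 519 CPM of Syt4 and 84.5 CPM of Rims2, while no other Ctr PA library exceeded 250, 128, 389 and 68.8 CPM. It also had the lowest summed acinar marker level of all libraries (213 CPM) and the fewest detected genes (17367). Without S23, 3 of the 9 genes passed in Ctr cells, namely Syt7, Syt4 and Snap25. Without S23 and Ctr BSA S1 together, an alternative added after the values were seen, 2 passed: Syt7 (log2 fold change 0.30, edgeR adjusted p = 5.71e-04) and Snap25 (0.15, adjusted p = 0.00446), and Syt4 had 0.14 (adjusted p = 0.0638).

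Other cell types changed with palmitate in the same libraries. The summed fibroblast markers had a median of 277 CPM in Ctr BSA and 37.2 CPM in Ctr PA, with 6 of 7 tested genes lowered. The summed macrophage markers had 146 and 95 CPM, a sum carried by C1qa (median 80.4 CPM over all libraries). Of the 10 macrophage genes 7 were lowered, and the median log2 fold change of the list was -2.17. Acinar markers in batch 1 had a median of 12603 CPM in Ctr BSA and 4367 CPM in Ctr PA, with 5 of 8 genes lowered over both batches. In batch 2 these sums were 425 and 320 CPM. Of the 10 β-cell genes 3 rose and 3 fell, and their sum had medians of 88124 CPM in Ctr BSA and 87754 CPM in Ctr PA in batch 1 and of 133830 and 117020 CPM in batch 2. Lowered genes were also found among the ductal (3 of 8) and the δ-cell and PP-cell markers (2 of 5). Of the 6 tested α-cell genes 1 fell. Their sum had medians of 18074 CPM in Ctr BSA and 21419 CPM in Ctr PA in batch 1, and of 13574 and 12532 CPM in batch 2. Among the endothelial genes 0 of 8 passed. Of the 5 tested neuronal genes 1 rose and 1 fell, and 0 of 8 Schwann cell and glia genes passed. The part of cell composition in the changes of the 9 genes was not tested.

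The same comparison in αGlu cells asked how palmitate acted when the tRNA fragment was blocked. Syt7, Vamp2 and Unc13a rose in αGlu PA against αGlu BSA, by 1.21-fold, 1.18-fold and 1.14-fold, and the other 6 genes did not pass. These 3 of 9 genes compare with 28.5% of all genes tested (14.4% upward). The median log2 fold change was 0.14 over the 9 genes and 0.01 over all genes. None of the 9 met the study's 2-fold threshold, which 5.57% of all genes did. In these libraries the fibroblast markers had a median sum of 219.9 CPM in BSA and 22.5 CPM in PA, with 4 of 7 genes lowered, and the acinar markers of batch 1 had 11373 and 4467 CPM, with 5 of 8 lowered over both batches. Of the β-cell genes 3 rose and 2 fell, and 3 of 8 ductal genes and 1 of 10 macrophage genes fell. The α-cell sum had medians of 16104 and 19380 CPM in batch 1 and of 14998 and 12713 CPM in batch 2, with 0 of 6 genes passing. The part of these cell types in the changes of the members was not tested.

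Syt7 had a lowest, median and highest level of 250, 307 and 359 CPM in αGlu BSA and of 327, 371 and 430 CPM in αGlu PA. Every PA library again lay above every BSA library of its batch. The log2 fold change was 0.28 ± 0.06 (edgeR adjusted p = 7.21e-04), with 0.32 in batch 1 (adjusted p = 0.0454) and 0.23 in batch 2 (adjusted p = 0.0416), and it passed without any 1 library.

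Vamp2 had 92.4, 105 and 119.8 CPM in αGlu BSA and 112.5, 119.6 and 140.1 CPM in αGlu PA. Its groups did not overlap in batch 1 and overlapped in batch 2. The log2 fold change was 0.24 ± 0.08 (edgeR adjusted p = 0.0249), and without αGlu PA S4 or S12 or αGlu BSA S18 the adjusted p was 0.0515 to 0.0615.

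Unc13a had 132, 155 and 187 CPM in αGlu BSA and 159, 171 and 203 CPM in αGlu PA, and its groups too were separate in batch 1 alone. Its log2 fold change of 0.19 ± 0.07 (edgeR adjusted p = 0.0407) lost its call when 1 of 9 libraries was left out (αGlu BSA S6, S10, S18 or S22, or αGlu PA S4, S8, S12, S16 or S24), with adjusted p up to 0.0966. With upper-quartile scaling the adjusted p was 0.0512.

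Snap25 in αGlu cells had 173, 208 and 232 CPM in BSA and 192, 228 and 249 CPM in PA. In both batches the PA libraries were above the BSA libraries, with a log2 fold change of 0.14 ± 0.06 (edgeR adjusted p = 0.112). All 4 groups shared 1 estimate of the spread, to which S23 contributed. The adjusted p was 0.00781 without Ctr PA S23 and 0.00551 when the αGlu libraries were fitted alone, with the log2 fold change at 0.14 both times.

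Syt4 had 223, 314 and 408 CPM in αGlu BSA and 242, 332 and 409 CPM in αGlu PA, and its log2 fold change was 0.06 ± 0.07 (edgeR adjusted p = 0.570). The groups overlapped in both batches. Rims2 had 56.6, 64.6 and 67.1 CPM in αGlu BSA and 57.8, 67.0 and 72.8 CPM in αGlu PA (log2 fold change 0.08, adjusted p = 0.387). Stx1a, at 8.13, 10.7 and 14.9 CPM against 9.87, 11.4 and 15.2 CPM, had a log2 fold change of 0.14 (adjusted p = 0.413). The granule GTPases did not pass either, with Rab27a at 142, 185 and 223 CPM against 153, 187 and 218 CPM (log2 fold change 0.02) and Rab3a at 53, 70.7 and 88.1 CPM against 49.9, 66.6 and 80.7 CPM (log2 difference -0.10, adjusted p = 0.382).

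**Figure D3:**
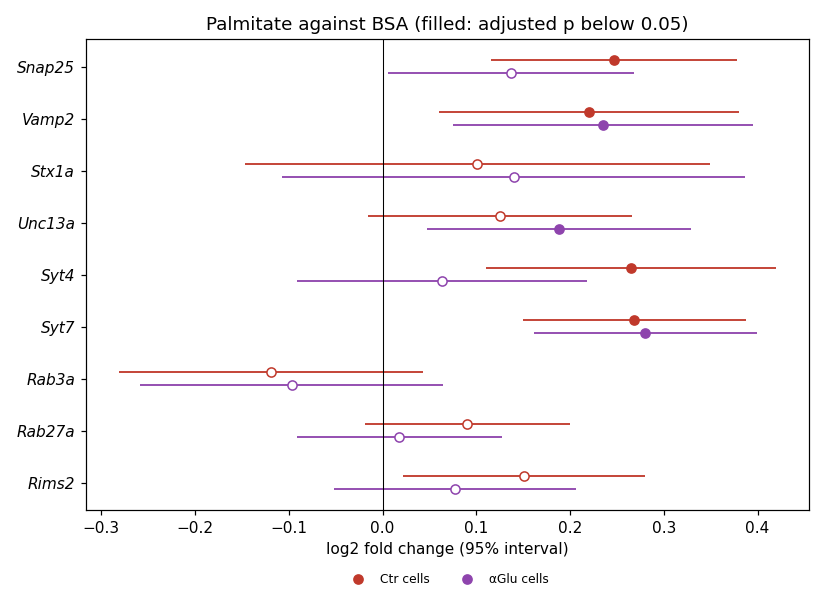
Log2 fold change of PA against BSA with its 95% interval for the 9 genes in Ctr cells (red) and αGlu cells (purple), with filled points past an adjusted p of 0.05. Syt7 (0.27 and 0.28) and Vamp2 (0.22 and 0.24) are filled in both, Rab3a is the only gene left of 0 in both, and the Stx1a intervals are the widest.

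The separation within batches can be read against all genes. In Ctr cells 4 of the 9 genes (Snap25, Syt4, Syt7 and Rab27a) had all PA libraries above all BSA libraries in batch 1, where 15.6% of tested genes did, and 2 (Snap25 and Syt7) in batch 2, where 14% did. In αGlu cells the counts were 4 in batch 1 (Snap25, Vamp2, Unc13a and Syt7; 19.6% of genes) and 2 in batch 2 (Snap25 and Syt7; 18.9% of genes). Over both batches together no member separated in Ctr cells (2.97% of genes upward) or in αGlu cells (4.17% upward).

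The effect of the inhibitor itself was read in BSA and in PA. None of the 9 genes passed in either comparison, nor did any of the 15916 genes (0%) by edgeR's quasi-likelihood test, while 461 (2.90%) and 538 (3.38%) genes had an unadjusted p below 0.05 in BSA and PA and DESeq2 called 8 and 30 genes. In BSA the largest estimates were Syt4 (0.11 higher in αGlu on the log2 scale, 95% interval -0.04 to 0.27) and Rab27a (0.11, interval 0.00019 to 0.22, unadjusted p = 0.0496, edgeR adjusted p = 1.00). In PA they were Syt4 (-0.09, interval -0.24 to 0.07) and Snap25 (-0.08, interval -0.21 to 0.05), with adjusted p = 0.993 for both. Of the Schwann cell and glia markers 7 of 8 had an unadjusted edgeR p below 0.05 in each medium. Their median log2 fold changes were -2.55 in BSA and -3.16 in PA, at sums of 7.72 to 99 CPM. So did 4 and 2 of 10 macrophage and 3 and 1 of 5 neuronal genes in BSA and PA, and 0 of 10 β-cell and 0 of 6 α-cell genes. The part of these cell types in the values of the 9 genes was not tested.

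The intervals bound what a difference could have been. Over the 9 genes and both media the lower limits lay at -0.30 or above and the upper limits at 0.27 or below, the widest belonging to Stx1a. Snap25 had -0.10 to 0.16 and Vamp2 -0.22 to 0.10 in BSA. A p that misses the threshold does not show that the levels were equal.

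Whether palmitate acted differently in αGlu and Ctr cells was tested as the difference between both PA responses, and no gene passed (0% of 15916, with 332, or 2.09%, below an unadjusted p of 0.05). Syt4, called in Ctr cells alone, had a difference of -0.20 ± 0.11 (95% interval -0.42 to 0.02, unadjusted p = 0.0699, edgeR adjusted p = 0.999). Snap25, likewise called in Ctr cells alone, had -0.11 ± 0.09 (unadjusted p = 0.232, adjusted p = 0.999), and Unc13a, called in αGlu cells alone, had 0.06 ± 0.10 (unadjusted p = 0.517, adjusted p = 0.999). The responses of Syt7 and Vamp2 differed by 0.01 and 0.02, with intervals from -0.16 to 0.18 and from -0.21 to 0.24. These data therefore did not separate the responses of any of the 9 genes between the oligonucleotides.

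**Figure D4:**
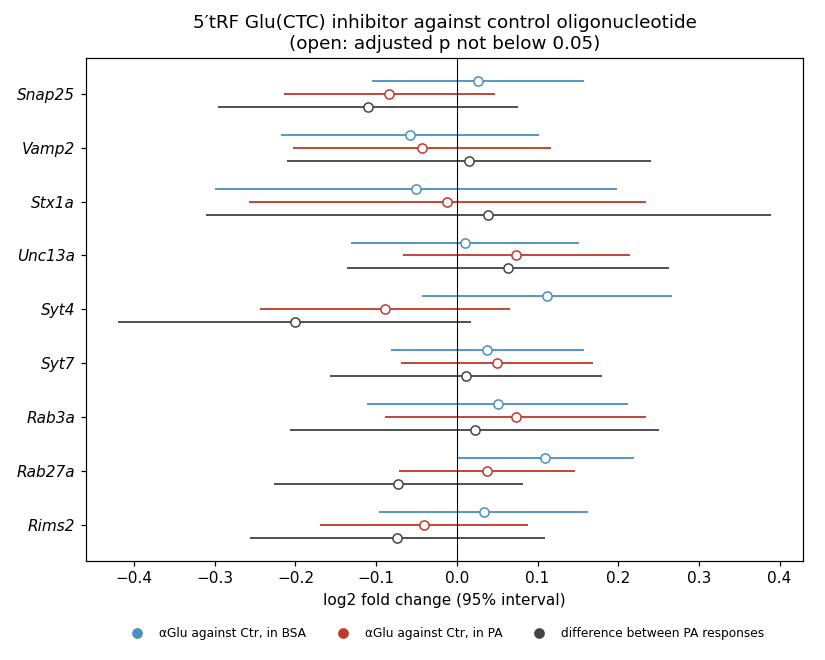
Log2 fold change of αGlu against Ctr in BSA (blue) and in PA (red) and the difference between the PA responses of αGlu and Ctr cells (dark grey), each with its 95% interval, for the 9 genes. Every point is open (adjusted p not below 0.05), and all intervals cross 0 except that of Rab27a in BSA (0.00019 to 0.22).

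The log2 differences between batches were larger in size than those between treatments for all members but Rims2. All 9 genes passed between batch 2 and batch 1, where 51.5% of all genes did, and 8 were higher in batch 2 (26.1% of all genes) and Stx1a was lower (25.4%). The 12 libraries of each batch hold 3 of every group, so the group comparisons above are balanced over batches.

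Syt4 differed most. It ran from 185 through 250 to 284 CPM in batch 1 and from 354 through 389 to 519 CPM in batch 2, without overlap (log2 fold change 0.68 ± 0.05, edgeR adjusted p = 1.63e-10). Snap25 (168 to 210 CPM against 227 to 348 CPM) and Rab27a (125 to 170 CPM against 188 to 223 CPM) did not overlap between batches either, with log2 fold changes of 0.39 and 0.42. These 3 of 9 genes compare with 3.23% of all genes that lay wholly higher in batch 2.

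Rab3a followed with a log2 fold change of 0.50 ± 0.06 (edgeR adjusted p = 5.74e-08), and 1 batch 1 library, Ctr BSA S1 at 73.2 CPM, reached into the batch 2 range of 68.2 to 88.1 CPM. Vamp2 (0.31), Syt7 (0.30), Unc13a (0.23) and Rims2 (0.12) rose less, with overlapping libraries. Stx1a fell by 0.32 on the log2 scale (SE 0.08, edgeR adjusted p = 0.00254), from 9.91 to 15.9 CPM in batch 1 to 8.03 to 12.3 CPM in batch 2.

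Cell composition moved with the batch as well. The summed acinar markers had a median of 6765 CPM in batch 1 (2942 to 21188) and 415 CPM in batch 2 (213 to 584), β-cell markers had 88085 and 132890 CPM, and α-cell markers had 18152 and 12837 CPM. What part these differences, or the unnamed handling that defines a batch, had in the levels of the 9 genes was not tested. Without a batch term none of the 9 passed for palmitate in either cell group, with Syt7 at an adjusted p of 0.112 in Ctr and 0.0919 in αGlu cells and its log2 fold changes at 0.26 and 0.28.

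**Figure D5:**
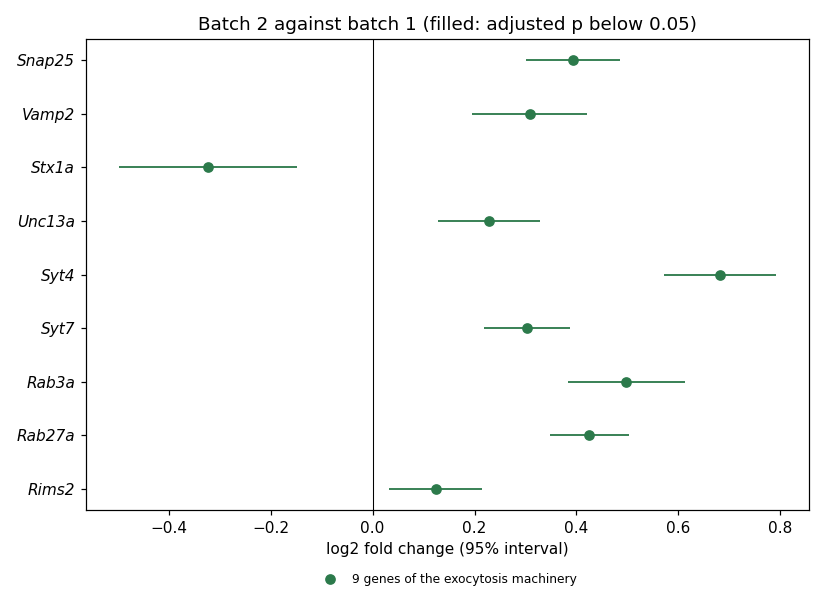
Log2 fold change of batch 2 against batch 1 with its 95% interval for the 9 genes, all filled as past an adjusted p of 0.05. Syt4 lies farthest right at 0.68 and Stx1a alone lies left of 0, at -0.32.

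The size of the palmitate response was also compared between batches. It differed for 9 of 15916 genes (0.0565%), none of them a member, with 6.18% of genes below an unadjusted p of 0.05. Syt7 had the smallest p of the 9, with a response lower by 0.15 in batch 2 (95% interval -0.32 to 0.01, unadjusted p = 0.0699, edgeR adjusted p = 0.829). Syt4 had -0.16 and Unc13a -0.13, with adjusted p = 0.921 and 0.945.

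The wider machinery was followed with a list of 94 further genes, of which 92 were tested. In Ctr PA against Ctr BSA 16 rose and 6 fell, which is 23.9% of the list against 30% of all genes, with a median log2 fold change of 0.06. In αGlu cells 18 rose and 5 fell (25% against 28.5%). By role, the calls in Ctr and αGlu cells fell on 8 and 7 of 15 priming factors and SNARE-binding regulators, on 5 and 6 of 14 SNARE proteins and on 6 and 6 of 23 Rab proteins and effectors. Of the 14 other synaptotagmins and calcium sensors 1 passed in each cell group, and of the 12 active-zone scaffolds 1 in Ctr and 0 in αGlu cells.

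Several raised genes are relatives of the members or act beside them. Rab3d, a close relative of Rab3a, rose by 0.34 ± 0.05 and 0.37 ± 0.05 on the log2 scale in Ctr and αGlu cells (edgeR adjusted p = 8.38e-06 and 2.66e-06), and Rab3b rose by 0.25 and 0.32, while Rab3a had -0.12 and -0.10. Cadps2, a priming factor of dense-core granules, rose by 0.45 and 0.47. Stx4a, the plasma membrane syntaxin that works beside Stx1a in β-cells, rose by 0.32 and 0.36, and Stx3 by 0.26 and 0.30. Vamp4, a SNARE of endosomes and the trans-Golgi network, rose by 0.47 and 0.31, Rab3gap1 rose by 0.20 and 0.11, and Stxbp2 by 0.23 in αGlu cells.

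Fewer genes of the list fell. Unc13d, a relative of Unc13a known for granule release in immune cells, fell by 0.94 and 1.18 (edgeR adjusted p = 1.34e-04 and 9.77e-06). Of the 10 macrophage markers 7 fell in Ctr and 1 in αGlu cells, with median log2 fold changes of -2.17 and -0.31. The part of macrophages in the Unc13d values was not tested. Cplx1, a complexin that clamps SNARE complexes, fell by 1.01 and 0.83, whereas its relative Cplx2 rose by 0.27 and 0.22. Cplx1 was near the floor, at 0.45 to 3.1 CPM over the libraries, against 256 to 436 CPM for Cplx2. Stx2 fell by 0.25 and 0.21. Baiap3 (-0.32) and Doc2b (-0.43), an Unc13-related protein and a calcium-binding protein of the release machinery, passed in Ctr cells, and Nsf (-0.18), the ATPase that takes spent SNARE complexes apart, and Sytl4 (-0.18), the Rab27a effector granuphilin, passed in αGlu cells. Differences between both cell groups were not past the threshold for any gene of the list.

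Relatives of the members that carry no call may be read by value. For palmitate in Ctr and αGlu cells the log2 estimates were 0.10 and 0.06 for Snap23, 0.09 and -0.03 for Vamp3, 0.02 and 0.07 for Vamp8, 0.08 and 0.08 for Unc13b, and -0.02 and -0.02 for Syt13. Syt5 had 0.27 and 0.29 (edgeR adjusted p = 0.0707 and 0.0583), a size like that of Syt7 with a wider error. None of the 92 genes passed for the inhibitor, and the smallest unadjusted p was 0.00873 for Nsf in BSA (0.11) and 0.0142 for Erc2 in PA (-0.24).

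Between batches 38 genes of the list were higher in batch 2 and 15 lower, which is 57.6% against 51.5% of all genes. Rab3d (0.73), Sytl4 (0.63), Syt13 (0.53), Cadps (0.42) and Rab3gap1 (0.28) rose with the members. Rims4 (-2.42), Rab27b (-2.17), Ppfia4 (-1.05), Sytl2 (-1.04) and Ralb (-0.55) were lower in batch 2. Several marker sums, the acinar one among them (medians 6765 and 415 CPM, above), were also lower there, and others were higher. The part of cell composition in the values of these genes was not tested. Rims4 was near the floor, with 8 to 43 counts in a library of batch 1 and 0 to 12 in batch 2.

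How alike the members were across libraries was measured as the root mean square difference of log2 CPM after centring each gene on its batch means, over 24 libraries that share depth and cell makeup. The nearest pairs of members were Snap25 and Vamp2 (0.077), Snap25 and Rims2 (0.083) and Unc13a and Syt7 (0.11). Without library S23, which was high in Snap25, Vamp2 and Rims2, these distances were 0.079, 0.075 and 0.093, and Snap25 and Rims2 were then the nearest pair. Among all tested genes the nearest to Syt7 were Cplx2, Dhdds and Ppp6r1 (0.05, 0.06 and 0.06), and the nearest to Syt4 were Dynlt3, B230219D22Rik and Serinc1 (0.05, 0.06 and 0.06). The median distance of any gene to each of these members was 0.26.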

How the data were processed

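Per the labels and the study's methods, the authors made stranded poly(A) RNA libraries and processed the reads with QIAGEN's RNA-seq Analysis Portal on GRCm38. An aligner, annotation or strand setting is not given in the sources used here. Deposited were, in 1 table, the authors' exon read counts, TPM and RPKM per gene and library, with 24 CPM columns that were not used. A single row without a gene name held 0 counts. The deposited TPM values gave the levels between genes, with RPKM as the alternative. Positions and exons were read from GENCODE M21 (GRCm38).

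Counts were filtered with filterByExpr (minimum count 10), scaled by TMM and fitted in edgeR 4.0.16 (quasi-likelihood, R 4.3.3) with group and batch as terms over all 24 libraries, and checked on simulated data. P-values were adjusted by Benjamini-Hochberg over 15916 genes, and a call is an adjusted p below 0.05. The study's methods speak of independent experiments, but the labels do not tie libraries to cultures or animals, so p-values measure the spread between these libraries. Stx1a had the fewest counts of the members.

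The members and lists were chosen with earlier results of these data known. Genes of the wider list were named by rule: in each comparison the 5 raised and 5 lowered of smallest p among those called, the 2 of smallest p where none was called, and the relatives of the members. Some genes that the rule names are not reported here. Alternatives were DESeq2 1.42.0, other scalings and filters, no batch term, each batch alone, the compared groups alone, each library left out, and a block of library sets assumed from their numbers.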

Additional observations from a re-analysis of the deposited data

Results flagged for a closer look

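The highest and the lowest library of a group were each tested against the others for the 9 genes in the 4 groups of 6 libraries (36 groups, Dixon's ratio of gap to range). At the 95% critical value chance would mark about 1 in 20 groups of independent values from 1 normal distribution. Each group here pools 2 batches, between which all 9 genes differed, and the 9 genes share libraries, so this rate may not hold. The critical value was exceeded in 2 groups, both through their highest library, Ctr PA S23. It had 183 CPM of Vamp2, with the next library at 128 CPM (ratio 0.668), and 84.5 CPM of Rims2, with the next at 68.8 CPM (ratio 0.646). S23 was also the library with the lowest summed acinar, endothelial, ductal and δ-cell or PP-cell markers (213, 12.2, 355 and 573 CPM), and the part of these in its Vamp2 and Rims2 levels was not tested.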

How the results depend on the processing

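Syt7 in both palmitate comparisons and Snap25 and Syt4 in Ctr cells kept their calls with DESeq2, RLE and upper-quartile scaling, no filter and a stricter filter, and without any 1 library. For every result that changed, the cause was not tested. Of the 9 members, 4 passed in Ctr and 3 in αGlu cells, and this became 0 and 0 without a batch term, 2 and 1 in batch 1 alone, 0 and 1 in batch 2 alone, 2 in Ctr cells with the compared groups alone, and 2 in Ctr cells without S1 and S23, an alternative chosen after seeing the data. Leaving out 1 library gave 3 to 5 and 1 to 4. Genes of the wider list raised and lowered in Ctr cells (16 and 6) became 5 and 3 without a batch term, 9 and 2 in batch 1, 3 raised in batch 2, and 3 lowered with the compared groups alone. In αGlu cells (18 and 5) they became 6 and 1, 7 and 1, and 3 and 2, with 10 lowered with the compared groups alone, 9 lowered without S1 and S23, and 3 to 8 lowered without 1 library. All genes called (4772 and 4543) became 2312 and 2271 without a batch term, 2033 and 1644 in batch 1, and 1833 and 1902 in batch 2. The inhibitor's count of 0 became 8 in BSA and 30 in PA with DESeq2, and in PA 3 without a filter, 6 with the compared groups alone, 6 in batch 2 and 1 without S1 and S23. Without 1 library it was 0 to 9 in BSA and 0 to 3 in PA. The order of levels changed in 0 to 2 places without 1 Ctr BSA library. Several log2 estimates that were not called changed sign. In batch 1 alone, Vamp2 and Stx1a had 0.018 and 0.065 for αGlu against Ctr in BSA, Snap25, Vamp2 and Stx1a had 0.019, 0.058 and 0.024 in PA, and Stx1a, Syt7 and Rab3a had -0.041, -0.042 and -0.0046 for the difference between PA responses. In batch 2 alone, Syt4 had -0.0049 for αGlu PA against BSA, Snap25 and Unc13a had -0.025 and -0.030 for the inhibitor in BSA, and Vamp2 had -0.0068 for the difference. Without S1 and S23, Stx1a had 0.036 in BSA, Snap25, Vamp2 and Rims2 had 0.0013, 0.045 and 0.014 in PA, and Stx1a, Syt7 and Rab3a had -0.077, -0.024 and -0.10 for the difference. Without 1 library, Rab27a ranged from -0.0099 to 0.039 for αGlu PA against BSA. For the inhibitor in BSA Stx1a ranged from -0.12 to 0.032, Unc13a from -0.026 to 0.054 and Rims2 from -0.00034 to 0.053, and in PA Snap25 ranged from -0.11 to 0.0034, Vamp2 from -0.082 to 0.047, Stx1a from -0.068 to 0.028 and Rims2 from -0.069 to 0.017. For the difference Vamp2 ranged from -0.023 to 0.11, Stx1a from -0.043 to 0.11, Syt7 from -0.015 to 0.042 and Rab3a from -0.063 to 0.067. No scaling moved the median of all genes by more than 0.02. The labels tie no libraries of different groups to each other. The study's reporting summary says that all groups of a biological replicate came from 1 passage or animal, and the main fit holds no term for this matching. Consecutive library numbers form 6 sets of 4 with 1 library of every group. Taking these assumed sets as a replicate block in place of batch, an alternative chosen after seeing the data, 5 members passed in Ctr cells (Rims2 added, adjusted p = 0.0409) and 3 in αGlu cells. With this block 10 and 9 genes of the wider list were lowered in Ctr and αGlu cells, and 9 genes passed for the inhibitor in BSA. It changed no other member's call in the group comparisons. Deviations from the group-and-batch means correlated over genes with r = 0.018 to 0.37 within these sets, above 0.1 in 25 of 36 pairs, and with -0.31 to 0.12 between libraries of other sets and groups in the same batch, where centring on 3 libraries itself lowers r. That these libraries form the matched sets is a hint from the data, since the labels do not say which libraries belong together.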
